A study of Mus musculus with 40 samples.

Results

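A set of 10 genes that encode the TSC complex, its target Rheb and subunits of both mTOR complexes was followed at the transcript level in the extensor digitorum longus (EDL), a fast-twitch leg muscle of the mouse. The genes were chosen by name (Tsc1, Tsc2, Tbc1d7, Rheb, Mtor, Mlst8, Rptor, Rictor, Akt1s1 and Deptor), 10 of the 22844 genes in the tables, and all 10 passed the filter on low counts. There were 40 mRNA-seq libraries in 8 groups of 5. Control mice (CON, genotype Tsc1fl/fl on strain Tsc1tm1Djk/J) were littermates that carried loxP-flanked Tsc1 without Cre recombinase. TSCmKO mice carry the same floxed Tsc1 with Cre, so that Tsc1 is deleted in skeletal muscle. The Cre driver is not given in the sources used here. Mice of each genotype were 3 or 9 months old and were injected intraperitoneally with vehicle or rapamycin (+RM) on 3 days. The labels give 4 mg per kg, the text of the study a higher dose, and which one was used is uncertain. Groups are written 3mCON, 3mCON+RM, 3mTSCmKO, 3mTSCmKO+RM and likewise for 9 months. RNA came from lysates of whole EDL muscle, which hold other cells beside muscle fibers. Fewer cells of a type and less RNA per cell cannot be told apart in such samples.

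The TSC complex is made of TSC1, TSC2 and TBC1D7. It switches off Rheb, a small GTPase on the lysosome, and so restrains mTORC1, the kinase complex that promotes protein synthesis and suppresses autophagy. mTOR and MLST8 are shared by both complexes, RAPTOR (Rptor) defines mTORC1 and RICTOR (Rictor) defines mTORC2. PRAS40 (Akt1s1) and DEPTOR (Deptor) are inhibitory subunits, the former of mTORC1 and the latter of both. Rapamycin binds the immunophilin FKBP12 and the pair then blocks mTORC1. In muscle fibers, loss of TSC1 leaves mTORC1 active without its usual inputs.

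Total counts ran from 8883870 to 35224669 per library, and no library held fewer than 125 counts of any of the 10 genes. Libraries at 9 months were more variable. A length score (the median level of 1241 genes with transcripts of at least 5000 nt minus that of 3937 genes with transcripts of at most 1500 nt, on the centred log2 scale, without the 10 genes) was between -0.01 and 0.27 in 3-month libraries and between -0.81 and 0.27 in 9-month libraries. There were 4 libraries below -0.5, namely 9mCON replicate 2, 9mCON+RM replicate 1, 9mTSCmKO replicate 3 and 9mTSCmKO+RM replicate 1. Results that rest on them are given without them as well. The 8 muscle fiber markers summed to between 101233 and 159922 TPM (scaled by depth and transcript length) in all libraries, and none of them was at 0. Their sum was 101233 to 121202 TPM in 9mTSCmKO, 132749 to 143759 TPM in 9mCON and 129300 to 148780 TPM in 9mTSCmKO+RM. Of the 8, 4 were lower and 1 higher in 9mTSCmKO than in 9mCON, and with rapamycin 3 were higher in 3mTSCmKO and 3 higher and 1 lower in 9mTSCmKO. The sum of 3 satellite cell markers was 17.5 to 28.3 TPM in the TSCmKO+RM groups against 5.65 to 11.4 TPM in TSCmKO, and of the 3 genes 2 were called higher with rapamycin in 9mTSCmKO and 1 in each other pair. The 4 tendon markers summed to 14.3 to 37.3 TPM in 9mTSCmKO and 10.8 to 30.9 TPM in 9mCON+RM, against 30.2 to 257 TPM in 9mCON. In 9mTSCmKO against 9mCON, 3 of 4 markers each of tendon, fibroblasts and smooth muscle were lower. So were 2 of 4 each of endothelium and Schwann cells and 1 of 4 of adipocytes, while 1 of 4 of macrophages was higher. With rapamycin in 9mCON, 3 of 4 of tendon, 4 of 4 of fibroblasts, 3 of 4 of macrophages and 1 of 4 of Schwann cells were lower. With age in TSCmKO, 4 of 4 adipocyte markers and 3 of 4 markers each of endothelium, erythroid cells, fibroblasts and tendon were lower. There 2 smooth muscle markers were lower as well, while 1 tendon and 1 Schwann cell marker were higher. Of the macrophage markers 1 was higher and 1 lower, and of the 8 fiber markers 1 was higher and 3 were lower. In 9mTSCmKO+RM against 9mCON, 4 of 4 fibroblast, 3 of 4 tendon and 2 of 4 macrophage markers were lower. The part of fiber and other cell types in the results below was not tested.

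On the TPM scale, which allows levels of different genes to be compared, Rheb and Akt1s1 led in both control groups. In 3mCON, Rheb was at 144 ± 9.19 TPM (SD, n = 5) and Akt1s1 at 107 ± 9.02 TPM. Then came Deptor at 45.01 ± 9.14, Tsc1 at 37.3 ± 6.94, Tsc2 at 35.8 ± 2.27 and Tbc1d7 at 31.6 ± 4.44 TPM, neighbours that each differed by less than 1 SD of the pair. Rptor at 24.2 ± 0.892 and Mtor at 21.97 ± 1.43 TPM followed, while Mlst8 at 9.61 ± 0.845 and Rictor at 7.01 ± 0.512 TPM closed the list. Thus the transcript that defines mTORC1 was present at a higher level per length than the one that defines mTORC2. The order at 9 months was close to this one, but in 9mCON all neighbours apart from Akt1s1 and Deptor, and Mlst8 and Rictor, differed by less than 1 SD.

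**Figure D1:**
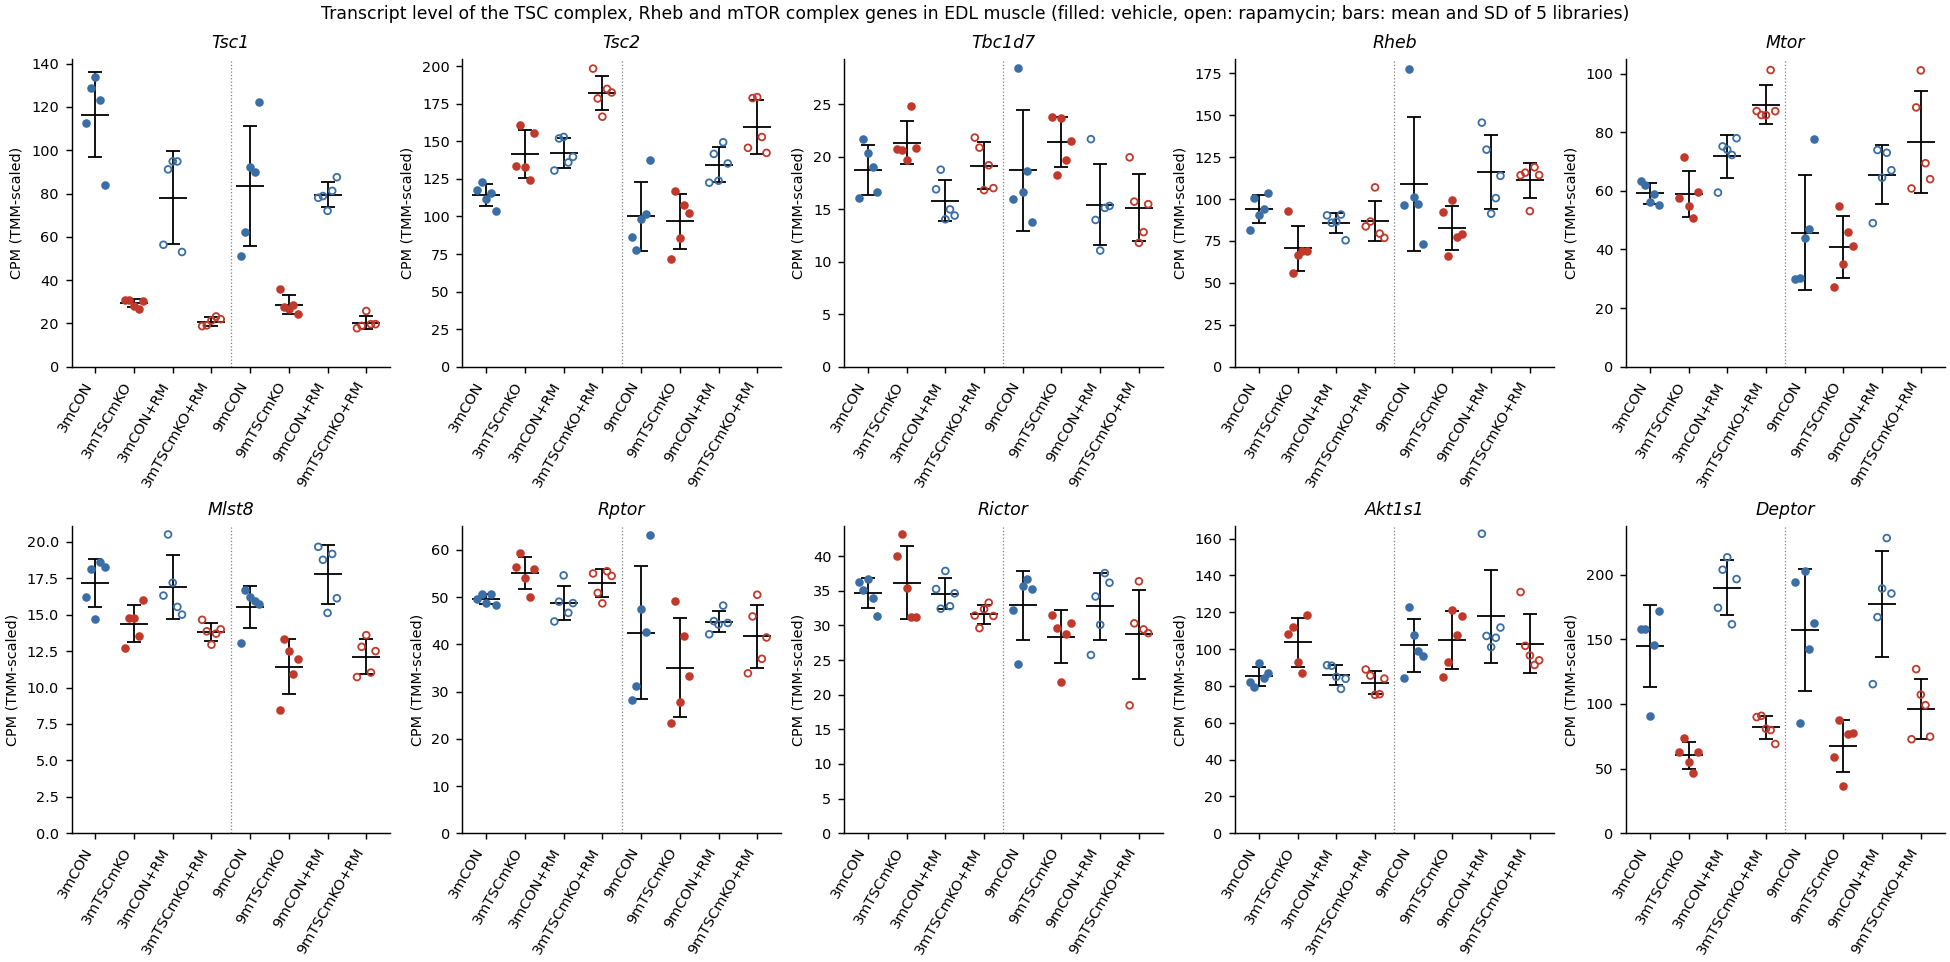
Normalised read counts (CPM, counts scaled to library size with TMM factors) of the 10 genes in each of the 40 libraries, by group, with 3-month groups left and 9-month groups right of the dotted line. Tsc1 and Deptor sit lower in TSCmKO (red) than in CON (blue), and Mtor and Tsc2 sit higher with rapamycin (open points) than with vehicle (filled points) in TSCmKO.

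The deleted gene was examined first. Tsc1 (ENSMUSG00000026812, GRCm38 chromosome 2, 28641228 to 28691167) was at 84.1, 113, 123, 129 and 134 CPM in the 3mCON libraries and at 26.5, 28.1, 30.4, 30.6 and 30.7 CPM in 3mTSCmKO. In 9mCON the libraries held 51.3, 62.03, 89.7, 92.3 and 122 CPM, and in 9mTSCmKO 24.4, 26.5, 27.6, 28.6 and 35.8 CPM. No TSCmKO library reached the lowest CON library at either age. In log2 terms Tsc1 fell by 1.99 (SE 0.172, adjusted p = 2.49e-11) in 3mTSCmKO and fell by 1.55 (SE 0.171, adjusted p = 2.33e-09) in 9mTSCmKO, so that TSCmKO muscle kept 0.251 and 0.342 of the control level. Between the rapamycin-treated groups the log2 change was -1.90 (SE 0.173, adjusted p = 2.54e-10) in 3-month and -1.97 (SE 0.174, adjusted p = 5.03e-11) in 9-month muscle. Adjusted p-values here and below are from edgeR's quasi-likelihood test with Benjamini-Hochberg adjustment over 13543 genes. Counts per gene cannot tell transcripts of the deleted allele from intact ones, and the label check rests on the whole gene.

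Of the 10 genes, 2 changed with genotype at 3 months (Tsc1 and Deptor, both lower), where 19.8% of all genes tested changed and 8.32% were lower, and 4 at 9 months (Tsc1, Deptor, Mlst8 and Rheb, all lower), where 37.9% changed and 18.9% were lower. With rapamycin in both groups, 3 changed at 3 months (Tsc1 and Deptor lower, Tsc2 higher) against 10% of all genes, and 3 at 9 months (Tsc1, Deptor and Mlst8, all lower) against 20.6%, with 9.33% lower. The median log2 fold change of the 10 genes was 0.03 at 3 months and -0.25 at 9 months, beside -0.02 and -0.02 for all genes. Values of TSCmKO and CON did not overlap for 3 genes at 3 months (Tsc1 and Deptor lower, Tsc2 higher) and for 1 at 9 months (Tsc1), against 19.6% and 16% of all genes. With rapamycin they did not overlap for 5 genes at 3 months and 2 at 9 months, against 14.3% and 13.6%. Averaged over the 4 CON and TSCmKO pairs, a contrast added after the data were seen, 5 of the 10 differed, against 47.1% of all genes. Among them was Rheb (-0.21, adjusted p = 0.0228), whose average call held in 8 of 11 alternative settings and in 38 of 40 fits that left out 1 library. None of the 10 was called higher with genotype under vehicle in the fit of all 40 libraries. Tsc1, the deleted gene, is part of every count of changed or separate genes in this paragraph, and its fall was set by the design.

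Deptor (ENSMUSG00000022419, chromosome 15, 55112317 to 55259271), which encodes an inhibitory subunit of both mTOR complexes, was the member most reduced after Tsc1 itself. The 3mCON libraries held 90.5, 146, 158, 158 and 172 CPM and the 3mTSCmKO libraries 46.6, 54.9, 62.5, 62.7 and 74.01 CPM. All 3mTSCmKO libraries were lower than all 3mCON libraries, and 3mCON had 1 low library. At 9 months the values were 85.3, 142, 163, 194 and 203 CPM in 9mCON and 36.9, 58.7, 76.6, 77.8 and 87.8 CPM in 9mTSCmKO. Here the groups met at their edges, since the lowest 9mCON library, replicate 2, was just under the highest 9mTSCmKO library. Deptor fell by 1.27 (SE 0.207, adjusted p = 1.39e-05) in log2 in 3mTSCmKO and fell by 1.22 (SE 0.206, adjusted p = 1.06e-05) in 9mTSCmKO, a level 2.41-fold and 2.33-fold lower.

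Deptor was also lower in TSCmKO when both genotypes had received rapamycin. The 3mCON+RM libraries held 162, 174, 197, 204 and 213 CPM and the 3mTSCmKO+RM libraries 69.02, 79.8, 80.8, 89.8 and 90.8 CPM, with no overlap. At 9 months 9mCON+RM libraries held 115, 167, 185, 189 and 228 CPM and 9mTSCmKO+RM libraries 72.7, 74.7, 99.1, 107 and 127 CPM, with 1 library of each group in the range of the other. The log2 changes were -1.21 (SE 0.206, adjusted p = 7.02e-05) and -0.88 (SE 0.205, adjusted p = 0.00145), respectively. These 4 calls held in each of 12 alternative settings and without any 1 of the libraries. The ratio of Deptor to Mtor, taken within each library on the TPM scale so that it does not depend on library scaling, was lower in TSCmKO in all 4 comparisons. Its log2 value was -0.30 ± 0.10 in 3mTSCmKO against 1.01 ± 0.36 in 3mCON (SD, n = 5 each, difference -1.31) and 0.22 ± 0.30 in 9mTSCmKO against 1.53 ± 0.64 in 9mCON (difference -1.30). With rapamycin the differences were -1.50 at 3 months and -1.23 at 9 months. Each of the 4 had an adjusted p of 0.0173 (two-sided exact permutation test, adjusted over 24 ratio comparisons), from the smallest p that 5 against 5 libraries allow, 0.00794. On the TPM scale Deptor was above Mtor in every CON library and below it in every 3mTSCmKO and 3mTSCmKO+RM library. In CPM, which is not scaled by length, Deptor was at 60.1 ± 10.2 and Mtor at 58.9 ± 7.84 in 3mTSCmKO (SD, n = 5). Which of the 2 genes is higher in TSCmKO at 3 months thus depends on the scaling by length.

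**Figure D2:**
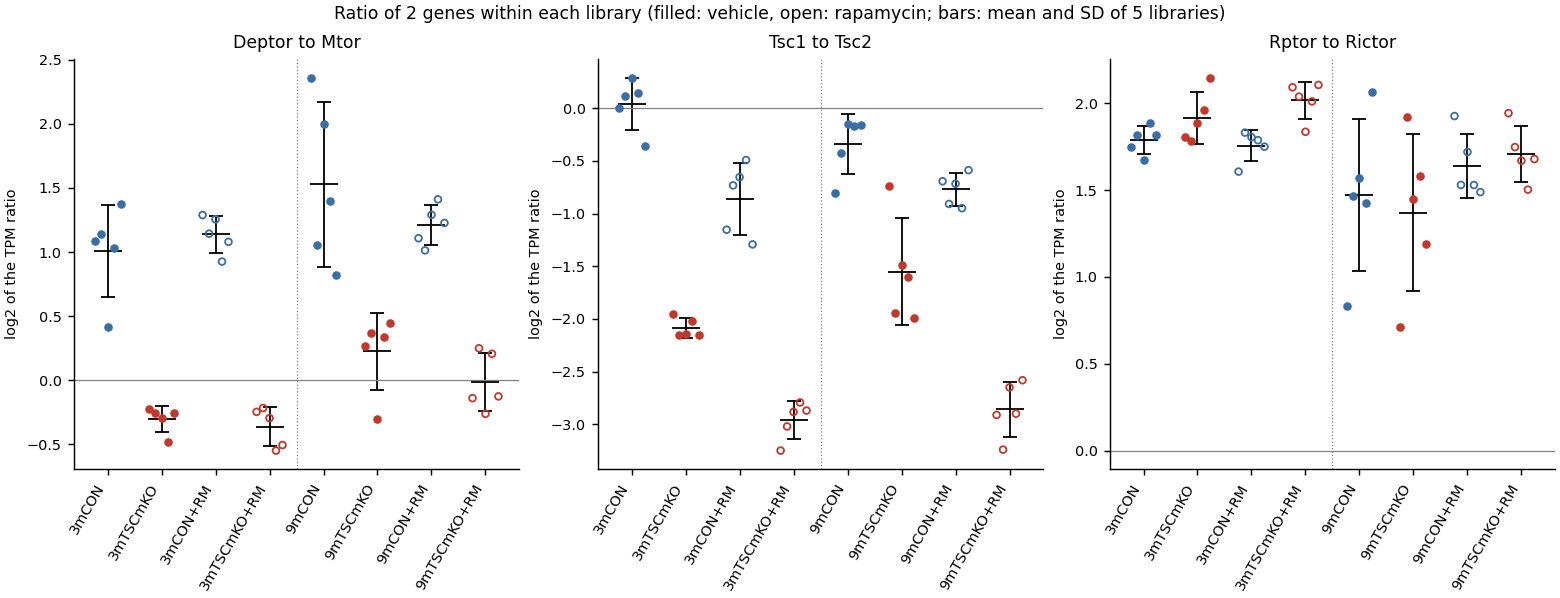
Log2 of the TPM ratio of Deptor to Mtor, of Tsc1 to Tsc2 and of Rptor to Rictor in each library, where 0 marks equal levels per length. Deptor to Mtor separates TSCmKO (red) from CON (blue) in each pair of groups, with a difference of -1.23 to -1.50, and Tsc1 to Tsc2 is lower in TSCmKO, with 1 library of 9mTSCmKO in the range of 9mCON, and lower again with rapamycin, while the values of Rptor to Rictor spread widely in 9mCON and 9mTSCmKO.

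Mlst8 (ENSMUSG00000024142, chromosome 17, 24473551 to 24479078) encodes a subunit that both complexes share beside mTOR. Its libraries held 13.1, 15.7, 15.9, 16.2 and 16.7 CPM in 9mCON and 8.43, 10.9, 11.99, 12.5 and 13.4 CPM in 9mTSCmKO, where only 1 library passed the lowest 9mCON value. Mlst8 fell by 0.44 (SE 0.1103, adjusted p = 0.00165) in log2. Between 9mCON+RM, at 15.1, 16.1, 18.8, 19.2 and 19.7 CPM, and 9mTSCmKO+RM, at 10.7, 11.03, 12.5, 12.8 and 13.6 CPM, the groups did not overlap and the change was -0.55 (SE 0.111, adjusted p = 0.000255). At 3 months the changes pointed down without passing the threshold, with -0.26 (SE 0.109, adjusted p = 0.0959) under vehicle and -0.29 (SE 0.109, adjusted p = 0.0925) under rapamycin, where the groups did not overlap. A fit of the 9mCON and 9mTSCmKO libraries alone ended the vehicle call (adjusted p = 0.0691). On average over the 4 pairs Mlst8 fell by 0.38 (SE 0.0549, adjusted p = 2.54e-07) in log2, and this held in all 11 alternatives and without any 1 of the 40 libraries.

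Rheb (ENSMUSG00000028945, chromosome 5, 24802823 to 24842624), the GTPase through which the TSC complex acts, was at 81.7, 90.5, 93.95, 100.4 and 104 CPM in 3mCON and 56.1, 66.5, 69.3, 69.3 and 92.7 CPM in 3mTSCmKO. It was at 73.1, 96.4, 96.8, 101 and 177 CPM in 9mCON and 66.3, 77.5, 79.3, 92.4 and 99.7 CPM in 9mTSCmKO. One 9mCON library, replicate 2, lay far above the rest, and the groups overlapped at both ages. The log2 fold changes were alike in size, -0.41 (SE 0.156, adjusted p = 0.0576) in the younger and -0.39 (SE 0.155, adjusted p = 0.0436) in the older mice, but the latter call was lost in 7 of 12 alternatives, among them the fit without the 4 libraries of low length score (-0.21, adjusted p = 0.214), and in 5 of 10 fits that left out 1 library, 9mCON replicate 2 or 3 or 9mTSCmKO replicate 2, 4 or 5. Under rapamycin the changes were 0.02 (SE 0.155, adjusted p = 0.98) and -0.06 (SE 0.155, adjusted p = 0.829). Of the 31-mers of Rheb transcripts, 2.39% also occur in transcripts of other genes.

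Tsc2 (ENSMUSG00000002496, chromosome 17, 24595816 to 24632630) encodes the subunit with the GTPase-activating domain, for which TSC1 is a partner. In 3mTSCmKO its libraries held 124, 133, 133, 156 and 161 CPM, all above those of 3mCON at 104, 112, 115, 118 and 123 CPM, yet the change of 0.31 (SE 0.1195, adjusted p = 0.0644) did not pass the threshold. Under rapamycin at 3 months it did, with 0.36 (SE 0.119, adjusted p = 0.048), although 4 of 12 alternatives and 9 of 10 fits that left out 1 library (all but the one without 3mTSCmKO+RM replicate 3) lost the call. At 9 months the changes were -0.05 (SE 0.1197, adjusted p = 0.782) under vehicle and 0.25 (SE 0.1195, adjusted p = 0.144) under rapamycin. Averaged over the 4 pairs, Tsc2 was higher in TSCmKO by 0.22 (SE 0.0598, adjusted p = 0.00291). The ratio of Tsc1 to Tsc2 was lower in TSCmKO in all 4 comparisons, with a difference in log2 of -2.12 at 3 months, -1.21 at 9 months, -2.10 at 3 months with rapamycin and -2.09 at 9 months with rapamycin (adjusted p = 0.0173, 0.0317, 0.0173 and 0.0173, exact permutation test). Since Tsc1 is the deleted gene, a lower ratio in TSCmKO was set by the design, and these tests add nothing to the fall of Tsc1 itself. The 9-month vehicle call was lost in 8 of 10 repeats that left out 1 library, all but those without 9mCON or 9mTSCmKO replicate 1 (adjusted p = 0.0586, exact permutation test).

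Tbc1d7, Mtor, Rptor, Rictor and Akt1s1 did not pass the threshold with genotype under vehicle or under rapamycin. Tbc1d7 (ENSMUSG00000021368, chromosome 13, 43151740 to 43171501) had log2 fold changes of 0.19 (SE 0.155, adjusted p = 0.437) in the younger and 0.20 (SE 0.156, adjusted p = 0.323) in the older mice. Mtor (ENSMUSG00000028991, chromosome 4, 148448611 to 148557683), the kinase itself, was at 58.9 ± 7.84 CPM in 3mTSCmKO and 59.1 ± 3.56 CPM in 3mCON, with -0.01 (SE 0.178, adjusted p = 0.99), and its change at 9 months was -0.17 (SE 0.179, adjusted p = 0.486). Rptor (ENSMUSG00000025583, chromosome 11, 119602905 to 119899576) had 0.15 (SE 0.151, adjusted p = 0.532) and -0.28 (SE 0.152, adjusted p = 0.145). Rictor (ENSMUSG00000050310, chromosome 15, 6708379 to 6800401) had 0.06 (SE 0.127, adjusted p = 0.795) and -0.21 (SE 0.128, adjusted p = 0.191), and Akt1s1 (ENSMUSG00000011096, chromosome 7, 44848991 to 44855421) 0.28 (SE 0.1202, adjusted p = 0.0932) and 0.04 (SE 0.1200, adjusted p = 0.815). The effect of genotype under vehicle was not shown to differ between ages for any of the 10 genes, with 0 interactions past the threshold in edgeR, in DESeq2 and in limma, against 4.94% of all genes in edgeR. At an unadjusted p under 0.05 there was 1, Tsc2 (-0.36, SE 0.169, adjusted p = 0.236).

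**Figure D3:**
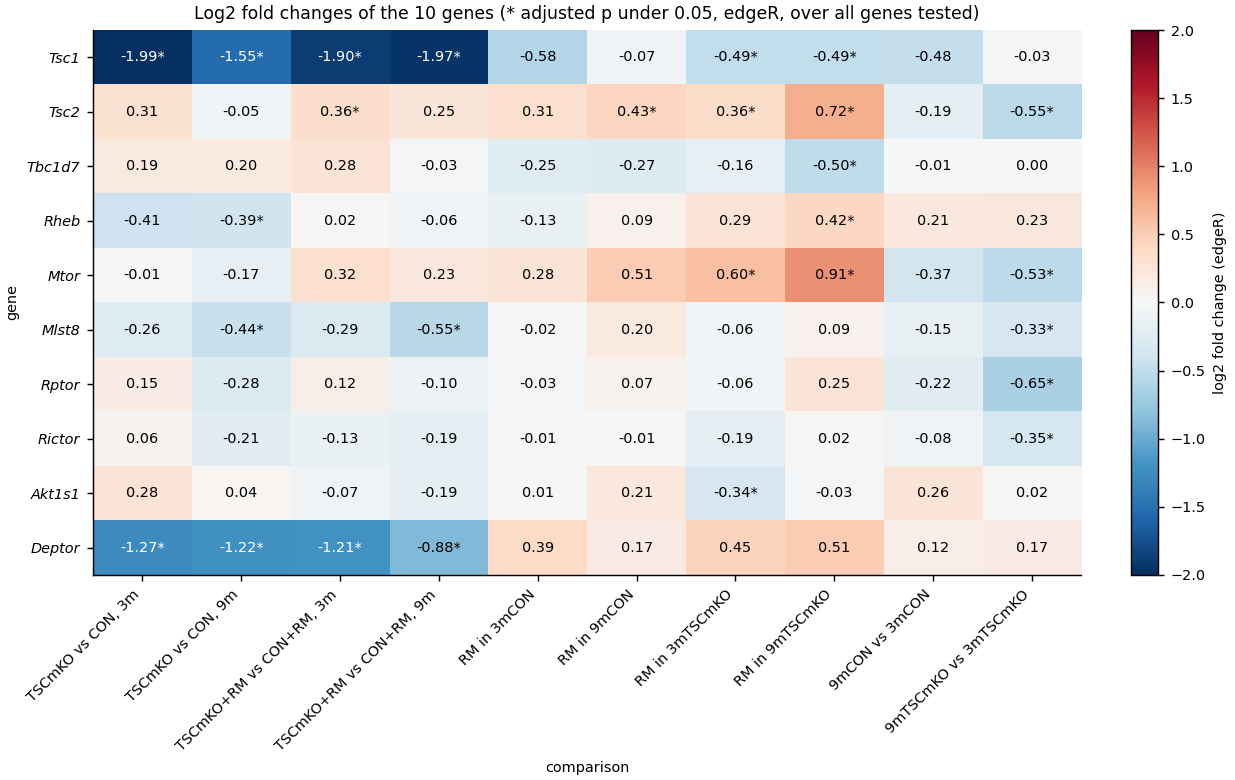
Log2 fold changes of the 10 genes (rows) in the 10 comparisons between pairs of groups (columns), with red for higher and blue for lower values in the first-named or treated or older group and an asterisk for an adjusted p under 0.05 over all genes. Tsc1 and Deptor are blue in the 4 genotype columns, Tsc2 and Mtor red in the 4 rapamycin columns, and 5 genes carry an asterisk in the column 9mTSCmKO vs 3mTSCmKO.

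The second comparison asked how 3 days of rapamycin changed these transcripts. In TSCmKO, 5 of 10 genes changed at 9 months (Tsc2, Mtor and Rheb higher, Tsc1 and Tbc1d7 lower) where 32.6% of all genes did, and 4 at 3 months (Tsc2 and Mtor higher, Tsc1 and Akt1s1 lower) where 23.6% did. In CON, 1 gene changed at 9 months (Tsc2, higher) against 11.8% of all genes. In 3mCON edgeR called none, against 0.679% of all genes, DESeq2 and limma called none either, and 2 genes (Tsc1 and Tsc2) had an unadjusted p under 0.05. Groups did not overlap for 2 genes in 9mTSCmKO, 3 in 3mTSCmKO, none in 9mCON and 1 in 3mCON, against 15.1%, 21.1%, 6.64% and 5.41% of all genes. The median change of the 10 genes was 0.17 in 9mTSCmKO, -0.06 in 3mTSCmKO, 0.13 in 9mCON and -0.01 in 3mCON, where those of all genes were -0.04, 0.01, -0.02 and -0.0043. Averaged over the 4 vehicle and rapamycin pairs, also added after the data were seen, 5 of the 10 changed (Mtor, Tsc2 and Deptor higher, Tsc1 and Tbc1d7 lower), against 39.3% of all genes. The comparisons with rapamycin share their vehicle libraries with the genotype comparisons above.

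In TSCmKO, Mtor itself was the member with the largest rise. In 9mTSCmKO its libraries held 27.3, 35.02, 41.1, 45.999 and 54.7 CPM, and in 9mTSCmKO+RM 60.8, 63.97, 69.4, 88.5 and 101 CPM, so that every treated library was above every vehicle library. The level was 1.88-fold higher, with a log2 change of 0.91 (SE 0.1797, adjusted p = 0.000147). In 3mTSCmKO the libraries held 50.8, 54.9, 57.5, 59.6 and 71.7 CPM and in 3mTSCmKO+RM 85.8, 85.9, 87.2, 87.2 and 101 CPM, again without overlap, and the level was 1.52-fold higher, with 0.60 (SE 0.178, adjusted p = 0.0108). Both calls held in 12 of 12 alternatives and without any 1 library. In CON the groups overlapped. The libraries held 29.998, 30.3, 43.8, 46.9 and 77.8 CPM in 9mCON and 48.97, 64.5, 67.02, 72.98 and 73.9 CPM in 9mCON+RM, with 0.51 (SE 0.179, adjusted p = 0.0542), and 55.2, 56.1, 58.9, 61.96 and 63.3 CPM in 3mCON and 59.4, 72.2, 74.1, 75.2 and 77.9 CPM in 3mCON+RM, with 0.28 (SE 0.178, adjusted p = 0.724).

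Tsc2 rose as well. Its libraries held 71.5, 85.7, 102, 108 and 117 CPM in 9mTSCmKO and 142, 146, 153, 179 and 179 CPM in 9mTSCmKO+RM. In 3mTSCmKO+RM they held 166, 179, 183, 185 and 198 CPM, above all 3mTSCmKO libraries. Neither pair of groups overlapped, and Tsc2 rose by 0.72 (SE 0.1201, adjusted p = 1.3e-05) in the older and 0.36 (SE 0.119, adjusted p = 0.0221) in the younger mice. The latter call was lost without 3mTSCmKO replicate 1 or 4 or 3mTSCmKO+RM replicate 1 (highest adjusted p = 0.0690). In 9mCON+RM the libraries held 122, 124, 135, 142 and 149 CPM against 77.3, 86.2, 98.1, 101 and 137 CPM in 9mCON, where 1 vehicle library lay among the treated ones, with 0.43 (SE 0.1199, adjusted p = 0.0159). This call was lost without 9mCON replicate 1 or 2, in limma fits on TPM and in a fit of those groups alone. In 3mCON+RM all libraries, at 131, 136, 139.7, 152 and 153 CPM, were above those of 3mCON, but the change of 0.31 (SE 0.1196, adjusted p = 0.306) did not pass the threshold. On average over the 4 pairs Mtor rose by 0.58 (SE 0.0893, adjusted p = 1.87e-06) and Tsc2 by 0.46 (SE 0.0598, adjusted p = 7.56e-08) in log2. Both held in all 11 alternatives and without any 1 of the 40 libraries.

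Across the 40 libraries, log2 CPM of Mtor and Tsc2 correlated with r = 0.94, the highest value among the 45 pairs of these genes. The points share libraries and groups, and the value is a description. For deviations from group means r was 0.92, with 0.73 at 3 months and 0.96 at 9 months. The ratio of Mtor to Tsc2 within libraries was added after the data were seen. Its difference with rapamycin was 0.07 in 9mTSCmKO, 0.18 in 3mTSCmKO, 0.09 in 9mCON and -0.01 in 3mCON (adjusted p = 0.635, 0.0544, 0.635 and 0.865, exact permutation test, adjusted over 32 comparisons). With genotype it was lower in 3mTSCmKO than in 3mCON (difference -0.25, adjusted p = 0.0212, exact permutation test). Rptor correlated with both as well (r = 0.75 with Mtor and 0.69 with Tsc2, and 0.90 and 0.88 for deviations from group means), so that within groups the pair was not set apart from Rptor. Its log2 fold change with rapamycin was 0.25 (SE 0.152, adjusted p = 0.204) in 9mTSCmKO and -0.06 (SE 0.1503, adjusted p = 0.825) in 3mTSCmKO.

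Since Mtor and Tsc2 were both called higher with rapamycin in TSCmKO at both ages, the 250 bases before their annotated starts are shown (RefSeq, GRCm38.p6, 5′ to 3′ on the strand of the gene). Such a stretch was available for 9 of the 10 genes. Capitals mark ETS motifs, written CCGGAAG, the boxes known by their letters CCAAT, and GC boxes with the letters GGGCGG. Each was searched on both strands.
Mtor promoter, chr4:148448332-148448581, plus strand: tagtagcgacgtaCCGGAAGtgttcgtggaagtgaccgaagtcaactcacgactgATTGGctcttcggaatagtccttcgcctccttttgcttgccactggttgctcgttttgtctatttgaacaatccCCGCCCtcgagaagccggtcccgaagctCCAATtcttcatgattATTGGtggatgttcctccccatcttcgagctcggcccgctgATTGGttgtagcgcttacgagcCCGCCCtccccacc
Tsc2 promoter, chr17:24632628-24632877, minus strand: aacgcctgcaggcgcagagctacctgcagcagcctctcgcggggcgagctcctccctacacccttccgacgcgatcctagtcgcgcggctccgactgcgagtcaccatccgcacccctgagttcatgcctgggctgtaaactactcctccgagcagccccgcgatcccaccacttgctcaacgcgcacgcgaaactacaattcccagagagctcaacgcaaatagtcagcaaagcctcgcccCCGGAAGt
Both stretches hold the ETS motif, in the Mtor stretch near its far end and in the Tsc2 stretch directly before the start. The Akt1s1 stretch holds it as well, and it occurs in 6.91% of 32851 promoters of this length. The Mtor stretch also holds the CCAAT box (in 33.8% of all promoters) and the GC box (in 32.7%), which were not found in the Tsc2 stretch. Before Rictor, 1 match of each shares bases. The E-box of the lysosomal CLEAR element (CACGTG, 6.02% of all promoters) was found before Rheb and Tbc1d7 only. The FoxO motif (GTAAACA, 3.17%), the cAMP response element (TGACGTCA, 1.55%) and the palindromic NRF1 motif (0.782%) were found in none of the 9 stretches. These are matches of letters and say nothing about binding.

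The transcripts of both partners of TSC2 fell with rapamycin in 9mTSCmKO, and that of Tsc1 in 3mTSCmKO too. Residual Tsc1 was at 17.8, 18.8, 19.6, 19.6 and 25.7 CPM in 9mTSCmKO+RM and at 18.7, 19.1, 21.3, 21.9 and 23.2 CPM in 3mTSCmKO+RM, so that the groups did not overlap at 3 months and 1 treated library lay in the vehicle range at 9 months. Tsc1 fell by 0.49 (SE 0.171, adjusted p = 0.0249) in 9mTSCmKO and fell by 0.49 (SE 0.169, adjusted p = 0.0311) in 3mTSCmKO. The former call was lost without 9mTSCmKO replicate 1 or 9mTSCmKO+RM replicate 1 or 2 and in the fit without the 4 libraries of low length score (-0.47, adjusted p = 0.0572), the latter without 3mTSCmKO replicate 1, 2 or 5 or 3mTSCmKO+RM replicate 1 or 2 and in limma fits on TPM (highest adjusted p over all fits 0.140). In CON the change was -0.58 (SE 0.166, adjusted p = 0.099) at 3 months, where 3 of 5 treated libraries were within the vehicle range, and -0.07 (SE 0.166, adjusted p = 0.843) at 9 months. Tbc1d7 was at 18.3, 19.7, 21.5, 23.7 and 23.8 CPM in 9mTSCmKO and 11.8, 12.8, 15.5, 15.7 and 19.95 CPM in 9mTSCmKO+RM, where 1 treated library lay in the vehicle range, with -0.50 (SE 0.157, adjusted p = 0.0126). Without 9mTSCmKO+RM replicate 3 its adjusted p was 0.0501. The other changes of Tbc1d7 were -0.16 in 3mTSCmKO, -0.27 in 9mCON and -0.25 in 3mCON (adjusted p = 0.507, 0.296 and 0.727). On average over the 4 pairs, Tsc1 fell by 0.41 (SE 0.08396, adjusted p = 0.000152) and Tbc1d7 fell by 0.29 (SE 0.0782, adjusted p = 0.00261) in log2, which held in all 11 alternatives and without any 1 library. The ratio of Tsc1 to Tsc2 was lower with rapamycin, by -1.30 in 9mTSCmKO, -0.88 in 3mTSCmKO and -0.90 in 3mCON (adjusted p = 0.0173 each, exact permutation test), while in 9mCON the difference of -0.43 did not pass the threshold (adjusted p = 0.0586, exact permutation test).

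Rheb was at 92.8, 114, 114, 116 and 119 CPM in 9mTSCmKO+RM, above 9mTSCmKO in all libraries but 1, with 0.42 (SE 0.155, adjusted p = 0.0341). This call was lost in 7 of 10 fits that left out 1 library (9mTSCmKO replicate 2, 4 or 5 or 9mTSCmKO+RM replicate 1, 2, 4 or 5) and with insert size as a term (highest adjusted p over all fits 0.117). No insert size is given for 9mTSCmKO+RM replicate 5, so every fit with insert size as a term also left that library out. In 3mTSCmKO the change was 0.29 (SE 0.155, adjusted p = 0.178), in 9mCON 0.09 (SE 0.155, adjusted p = 0.774) and in 3mCON -0.13 (SE 0.156, adjusted p = 0.928). Akt1s1 was at 86.9, 93.1, 108, 112 and 118 CPM in 3mTSCmKO and 75.2, 75.5, 83.97, 85.6 and 88.9 CPM in 3mTSCmKO+RM, where 1 treated library lay above the lowest vehicle library, with -0.34 (SE 0.1201, adjusted p = 0.034). That call was lost in 3 of 12 alternatives and in 5 of 10 fits that left out 1 library (3mTSCmKO replicate 1, 2 or 5 or 3mTSCmKO+RM replicate 3 or 4), with adjusted p up to 0.103. In 9mTSCmKO it was -0.03 (SE 0.1200, adjusted p = 0.879).

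Deptor was higher with rapamycin on average over the 4 pairs, by 0.38 (SE 0.102, adjusted p = 0.00283), which held in all 11 alternatives and without any 1 library, but no single pair passed the threshold. The changes were 0.51 in 9mTSCmKO, 0.45 in 3mTSCmKO, 0.17 in 9mCON and 0.39 in 3mCON (adjusted p = 0.0523, 0.109, 0.668 and 0.585). The ratio of this inhibitor to the kinase Mtor differed with rapamycin by -0.24, -0.06, -0.32 and 0.13 in the same order, and none passed the threshold (adjusted p = 0.286, 0.571, 0.476 and 0.621, exact permutation test). Rictor and Mlst8 did not pass the threshold, with 0.02 and 0.09 in 9mTSCmKO and -0.19 and -0.06 in 3mTSCmKO (adjusted p = 0.935, 0.577, 0.292 and 0.767). The ratio of Rptor to Rictor, the subunits that define the 2 complexes, passed the threshold in 1 of 8 comparisons. It was 0.26 higher in log2 in 3mTSCmKO+RM (2.02 ± 0.11) than in 3mCON+RM (1.76 ± 0.09, SD, n = 5 each, adjusted p = 0.0173, exact permutation test).

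The response to rapamycin was not shown to differ between genotypes for any of the 10 genes. At 9 months edgeR, DESeq2 and limma called 0 interactions, against 4.87% of all genes in edgeR, and 0 had an unadjusted p under 0.05. At 3 months they called 0 against 3.45%, and 1 gene, Akt1s1, had an unadjusted p under 0.05 (-0.35, SE 0.1700, adjusted p = 0.313). The interaction of Mtor was 0.40 (SE 0.253) at 9 months and 0.32 (SE 0.251) at 3 months. That of Tsc2 was 0.30 (SE 0.169) and 0.05 (SE 0.169). These values do not show that both genotypes responded alike.

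Treated TSCmKO muscle was also set against vehicle-treated CON, a contrast added after the data were seen. At both ages the same 5 of 10 genes differed, against 31.9% of all genes at 9 months and 16.7% at 3 months. Deptor remained lower, with -0.71 (SE 0.204, adjusted p = 0.00665) in 9mTSCmKO+RM and -0.82 (SE 0.205, adjusted p = 0.0038) in 3mTSCmKO+RM, at 96.1 ± 22.9 against 157 ± 47.04 CPM and 82.1 ± 8.85 against 145 ± 31.7 CPM (SD, n = 5). In limma fits on TPM the 9-month call was lost (adjusted p up to 0.0683). Mlst8 was lower as well, with -0.35 (SE 0.111, adjusted p = 0.0128) and -0.31 (SE 0.109, adjusted p = 0.0428), though the 3-month call was lost in 8 of 10 fits that left out 1 library (3mCON replicate 1, 2, 4 or 5 or 3mTSCmKO+RM replicate 2, 3, 4 or 5), and the 9-month call without the 4 libraries of low length score (-0.27, adjusted p = 0.0861), in limma fits and in a fit of those groups alone. Tsc2 was higher, with 0.67 (SE 0.1201, adjusted p = 3.14e-05) and 0.67 (SE 0.1198, adjusted p = 7.52e-05), and so was Mtor, with 0.74 (SE 0.179, adjusted p = 0.00136) and 0.60 (SE 0.178, adjusted p = 0.0154). Groups did not overlap for 2 of the 10 genes at 9 months and 4 at 3 months, against 16.8% and 19.1% of all genes. Thus with rapamycin the transcript levels of Mtor and Tsc2 in TSCmKO were above those of vehicle controls, where Tsc2 at 3 months was already at 141 ± 15.998 CPM in vehicle-treated TSCmKO against 114 ± 7.18 CPM in 3mCON, whereas Deptor and Mlst8 were between them and vehicle-treated TSCmKO or near the latter.

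The last comparison was that of ages. In CON, edgeR called none of the 10 genes, against 1.02% of all genes, nor did DESeq2 or limma, and 3 genes (Tsc1, Mtor and Akt1s1) had an unadjusted p under 0.05. Without 9mCON replicate 5, 2 were called (Tsc1 and Mtor, both lower at 9 months). No gene had groups without overlap in CON, against 3.26% of all genes. In TSCmKO, 5 were lower at 9 months, where 37.4% of all genes changed and 18.3% were lower, and 2 did not overlap, against 18.6%. The 5 lower genes were Tsc2, Mtor, Rptor, Rictor and Mlst8. Rptor was at 23.4, 27.8, 33.3, 41.8 and 49.2 CPM in 9mTSCmKO, all below the 3mTSCmKO libraries at 50.1, 54.1, 56.03, 56.3 and 59.3 CPM, with -0.65 (SE 0.152, adjusted p = 0.000962). Tsc2 changed by -0.55 (SE 0.1198, adjusted p = 0.000528), Mtor by -0.53 (SE 0.179, adjusted p = 0.0189), Rictor by -0.35 (SE 0.127, adjusted p = 0.03) and Mlst8 by -0.33 (SE 0.1097, adjusted p = 0.0169). Without 3mTSCmKO replicate 2, 9mTSCmKO replicate 1 or 9mTSCmKO replicate 3 the count fell to 3. The call of Rictor held in 6 of 12 alternatives and in 6 of 10 fits that left out 1 library. For Mtor these numbers were 8 and 7, for Mlst8 10 and 8, for Tsc2 11 and 10, and for Rptor 12 and 10. Insert size moved with age, as the labels give inserts of 175 to 239 nt for 3-month and 223 to 308 nt for 9-month libraries. With insert size as a term only Rptor passed the threshold, and with the length score as a term Mtor (-0.16) and Rictor (-0.04) did not, while Tbc1d7 was called lower (-0.35, adjusted p = 0.0148) and Deptor higher.

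Part of the spread within groups followed the length score of the library. Deviations of the 10 genes from their group means were compared with those of the length score in 40 libraries (10 relations). Rictor, whose coding transcript is the longest (9312 nt, as the median over annotated transcripts of a gene), had r = 0.84 (Spearman's rho 0.71, permutation p = 1e-05 for both, the smallest that 100000 permutations can give), and r = 0.76 without the 2 libraries farthest from the median score. Mtor had r = 0.71, Rptor 0.67, Deptor 0.68 and Tsc2 0.61. The genes with the shortest transcripts (750 to 1784 nt) ran the other way, with r = -0.80 for Tbc1d7, -0.68 for Rheb and -0.66 for Akt1s1. The members did not order by length throughout, since r was 0.42 for Tsc1 (7678 nt) and -0.07 for Mlst8 (3223 nt), which is close in length to Deptor (3300 nt). Spearman's rho of the genes other than Rictor and Mlst8 lay between -0.64 and 0.69. Apart from Mlst8 (adjusted permutation p = 0.651), all passed the threshold after adjustment (highest adjusted permutation p = 0.00827 for r and 0.0135 for rho). Values were permuted over all 40 libraries and not within ages. The score spread more at 9 months (group SD 0.27 to 0.39) than at 3 months (0.06 to 0.11). The permutation p-values are therefore approximate and do not speak for the 3-month libraries alone. Without the 2 farthest libraries the absolute r of these 9 was 0.35 to 0.76. At 9 months alone the 9 relations had an absolute r of 0.55 to 0.88. At 3 months that of Rictor was 0.64 and that of Tbc1d7 -0.55, those of the other 7 lay between -0.20 and 0.40, and that of Mlst8 was -0.46. The group mean of the score was -0.30 in 9mTSCmKO, -0.12 in 9mTSCmKO+RM, -0.17 in 9mCON and -0.10 in 9mCON+RM, against 0.12 to 0.17 in the 3-month groups. With the score as a term, each call named above in the genotype and rapamycin comparisons held.

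**Figure D4:**
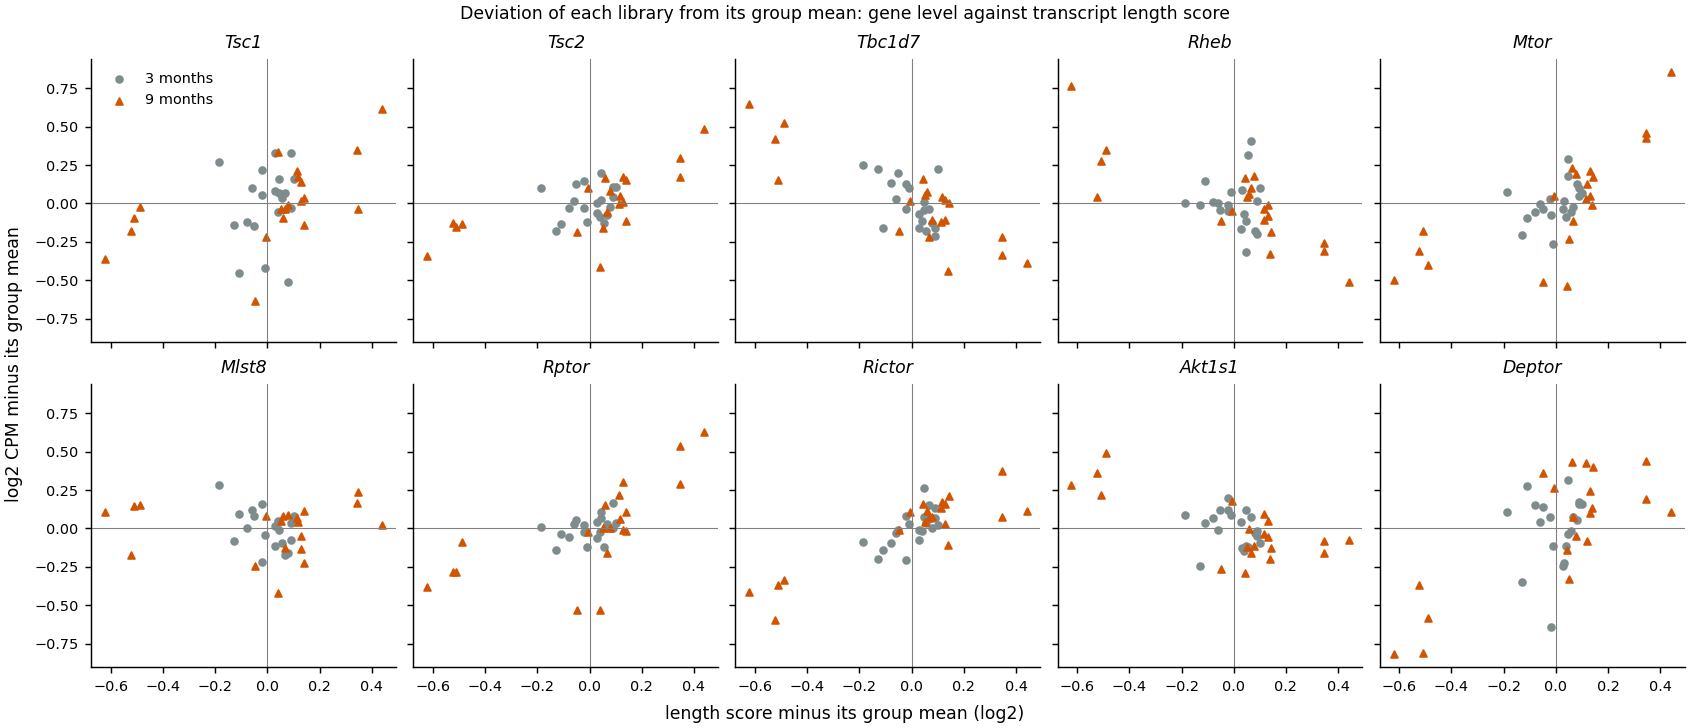
Deviation of each library from its group mean in log2 CPM of the 10 genes (vertical axes) against its deviation in length score (horizontal axes, log2), with grey circles for 3 months and orange triangles for 9 months. Rictor rises and Tbc1d7 falls along the score (r = 0.84 and -0.80 over 40 libraries), Mlst8 shows no slope over all 40 libraries (r = -0.07), and the wide horizontal spread belongs to the 9-month libraries.

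Genes whose log2 CPM followed the members most closely over the 40 libraries were found for description. For Mtor they were Hdlbp (r = 0.96), Myh2, the myosin heavy chain of fast oxidative fibers (0.95), and Ap2a2 (0.94). For Tsc2 they included Dnajc16 (0.94) and Cul9 (0.92), and for Rptor they were Acacb (0.94), Gm21985 (0.94) and Zfyve26 (0.93). Deptor was followed by Parm1 (0.89), Mical2 (0.89) and Gdap1 (0.86), Tsc1 by Galnt17 (0.89), Cux2 (0.89) and Pld5 (0.88), and Mlst8 by Dcun1d2 (0.86), Pknox2 (0.84) and Slc2a12 (0.84). The values for Rictor, Tbc1d7, Rheb and Akt1s1 were 0.83 to 0.87, among them Lamtor5, a Ragulator subunit, for Tbc1d7 (0.83).

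The wider pathway was described with 13 lists of 96 genes around the complexes, of which 90 were tested. With genotype 32 of the 90 changed at 9 months (14 higher, 18 lower, 35.6%) and 19 at 3 months (15 higher, 4 lower, 21.1%), near the 37.9% and 19.8% of all genes. Rapamycin changed 34 in 9mTSCmKO (17 higher, 17 lower, 37.8%) and 34 in 3mTSCmKO (8 higher, 26 lower, 37.8%), beside 32.6% and 23.6% of all genes, and 14 in 9mCON (15.6%) and 2 in 3mCON (2.22%), beside 11.8% and 0.679%. The median change of the 90 was -0.20 with rapamycin in 3mTSCmKO, where that of all genes was 0.01.

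Of the amino acid sensors, 5 were tested, and the sestrins, stress-induced proteins that restrain mTORC1 through GATOR2, had the largest changes among them. With genotype 4 of 5 sensors were higher at 3 months, where 19.8% of all genes changed either way, and 3 were higher and 1 lower at 9 months, where 37.9% did. Sesn3 was at 171 ± 31.3 CPM in 3mTSCmKO against 48.6 ± 5.59 CPM in 3mCON, and at 111 ± 40.6 against 31.5 ± 9.65 CPM at 9 months (SD, n = 5), a rise of 1.81 (SE 0.203, adjusted p = 1.04e-08) and 1.82 (SE 0.204, adjusted p = 3.74e-09) in log2. Sesn1 changed by 1.24 (SE 0.187, adjusted p = 3.43e-06) at 3 months and Sesn2 by 1.67 (SE 0.1895, adjusted p = 4.46e-09) at 9 months. In 3mTSCmKO, where rapamycin changed 23.6% of all genes, all 3 sestrins were lower with it. The log2 changes there were -1.42 (SE 0.1998, adjusted p = 1.18e-06) for Sesn3, -1.39 (SE 0.187, adjusted p = 4.99e-07) for Sesn1 and -1.04 (SE 0.183, adjusted p = 4.01e-05) for Sesn2. In controls Sesn2 did not fall at 9 months, at 3.64 ± 0.884 CPM in 9mCON and 3.92 ± 0.948 CPM in 9mCON+RM.

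Among kinases and inhibitors that signal to the TSC complex, 10 of 27 changed at 9 months (5 higher, 5 lower, 37%) and 5 at 3 months (4 higher, 1 lower, 18.5%), near the 37.9% and 19.8% of all genes. Ddit4, a stress-induced inhibitor of mTORC1 known as REDD1, rose from 13.8 ± 6.53 CPM in 3mCON to 129.7 ± 97.3 CPM in 3mTSCmKO, a widely spread group, and was at 13.7 ± 6.09 CPM in 3mTSCmKO+RM. The log2 fold changes were 3.23 (SE 0.542, adjusted p = 3.23e-05) with genotype and -3.25 (SE 0.541, adjusted p = 2.79e-05) with rapamycin. Of the AMPK subunits, which activate the TSC complex, Prkaa1 rose by 0.99 (SE 0.128, adjusted p = 6.21e-08) at 9 months and Prkag3 fell with rapamycin in 3mTSCmKO, with a log2 change of -1.37 (SE 0.168, adjusted p = 7.31e-08). Ddit4l fell there too, with a log2 change of -1.43 (SE 0.244, adjusted p = 2.62e-05).

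Of 20 substrates and effectors of mTORC1, 6 changed at 9 months (3 higher, 3 lower, 30%) and 4 at 3 months (3 higher, 1 lower, 20%), beside 37.9% and 19.8% of all genes. Eif4b, a translation initiation factor, was at 385 ± 34.6 CPM in 3mCON, 241 ± 26.7 in 3mTSCmKO, 711 ± 54.01 in 3mCON+RM and 533 ± 14.6 in 3mTSCmKO+RM. It fell with genotype, with a log2 change of -0.67 (SE 0.106, adjusted p = 7.5e-06) at 3 and -0.64 (SE 0.106, adjusted p = 7.67e-06) at 9 months, and rose with rapamycin in all 4 pairs, from 0.89 (SE 0.107, adjusted p = 2.41e-06) in 3mCON to 1.54 (SE 0.108, adjusted p = 6.07e-13) in 9mTSCmKO. Eif4ebp1, an inhibitor of cap-dependent translation, was higher in 9mTSCmKO, with 1.01 (SE 0.184, adjusted p = 3.26e-05).

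**Figure D5:**
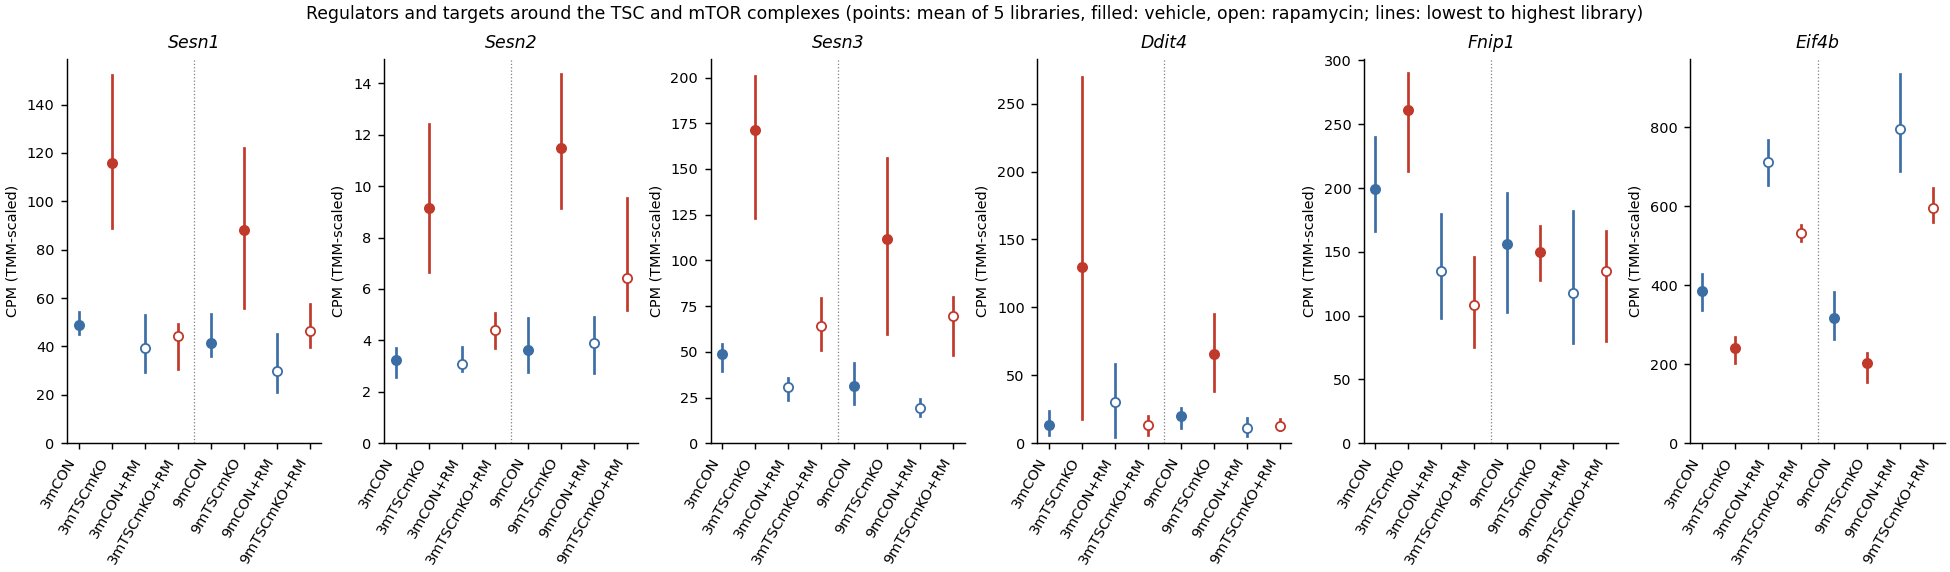
Normalised read counts (CPM) of 3 sestrins, Ddit4, Fnip1 and Eif4b by group, with the mean of 5 libraries as points and the range from the lowest to the highest library as lines. The sestrins and Ddit4 are highest in vehicle-treated TSCmKO (filled red points), and Eif4b is higher with rapamycin (open points) in each of the 4 pairs.

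The lists that act at the lysosome are short. GATOR1 and KICSTOR, which restrain mTORC1, had 3 of 6 genes lower at 9 months (50%, beside 37.9% of all genes changed either way), among them Kptn (-0.64 (adjusted p = 0.000463)), and rapamycin raised 3 in 9mTSCmKO (50%, beside 32.6%), among them Itfg2 (0.47 (adjusted p = 0.00343)) and Nprl3 (0.47 (adjusted p = 0.000232)). In 3mTSCmKO rapamycin raised 3 of the 6 and lowered 1 (66.7%, beside 23.6%). Of the folliculin complex, Flcn was lower in 9mTSCmKO (-0.62 (adjusted p = 0.000303)), and Fnip1 and Flcn fell with rapamycin in 3mTSCmKO, the former from 261 ± 31.4 to 108 ± 26.5 CPM (-1.27 (adjusted p = 1.38e-05)). Of 3 Rag GTPases, 2 fell with rapamycin in 3mTSCmKO, Rragd (-0.78 (adjusted p = 0.000822)) and Rragc (-0.40 (adjusted p = 0.00547)). The folliculin and Rag calls with rapamycin in 3mTSCmKO stand beside 23.6% of all genes changed. Slc38a9, a lysosomal amino acid transporter that binds Ragulator and was listed with its 5 subunits, was higher in 9mTSCmKO (0.36 (adjusted p = 0.0174)), the 1 call among these 6 genes there. GATOR2 had 1 call among 5 genes at 3 months (20%, beside 19.8% of all genes), Wdr59 (0.41 (adjusted p = 0.0237)). The TTT co-chaperone, which helps to assemble mTOR complexes, had Tti1 (-0.45 (adjusted p = 0.000541)) and Telo2 (-0.45 (adjusted p = 0.00151)) lower and Tti2 (0.33 (adjusted p = 0.0156)) higher in 9mTSCmKO. These TTT calls and those of Flcn and Slc38a9 stand beside 37.9% of all genes changed with genotype at 9 months.

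Of the mTORC2-specific subunits tested, Mapkap1 and Prr5, the former rose with rapamycin in 9mTSCmKO (0.24 (adjusted p = 0.0258)), where 32.6% of all genes changed. Of 4 mTORC2 substrates tested, Sgk1 was higher in 3mTSCmKO (0.62 (adjusted p = 0.0391)) and Prkce, a protein kinase C, was lower (-0.52 (adjusted p = 0.0259)), at 21.6 ± 1.503 against 31.03 ± 1.66 CPM in 3mCON (SD, n = 5), 2 calls among 4 (50%) beside 19.8% of all genes. At 9 months their changes were -0.41 (adjusted p = 0.14) and -0.02 (adjusted p = 0.953), and the genotype effect differed between ages for Sgk1 (-1.03 (adjusted p = 0.0439)) but was not shown to for Prkce (0.51 (adjusted p = 0.236)). Sgk1 fell with rapamycin in 3mTSCmKO (-1.16 (adjusted p = 0.000128)). Of 5 immunophilin genes, rapamycin raised 1 and lowered 2 in 9mTSCmKO (60%, beside 32.6% of all genes) and raised 2 in 9mCON (40%, beside 11.8%). Fkbp1a, which encodes FKBP12, fell with rapamycin in 9mTSCmKO (-0.48 (adjusted p = 0.00714)). Its change in 9mCON was 0.01 (adjusted p = 0.965), and the difference between genotypes did not pass the threshold (-0.49 (adjusted p = 0.135)). Fkbp4 was higher with rapamycin in 9mTSCmKO (0.55 (adjusted p = 1.94e-05)) and in 9mCON (0.48 (adjusted p = 0.000771)), and Fkbp5 in 9mCON (1.20 (adjusted p = 0.0189)). In 9mTSCmKO the change of Fkbp5 was -0.61 (adjusted p = 0.172), and its response differed between genotypes at 9 months (-1.81 (adjusted p = 0.0238)). Rhebl1, the homologue of Rheb, had a log2 change of 0.36 (adjusted p = 0.22) in 9mTSCmKO.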

How the data were processed

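Messenger RNA of whole EDL lysates was sequenced in 40 libraries. Per the labels and the study's methods, the authors trimmed single-end directional reads with cutadapt 1.9.1, assigned them to Ensembl transcripts of GRCm38 with kallisto 0.43.1, shared a read among the transcripts it hit and summed per gene. The deposited tables hold these estimated counts (whole numbers) and the TPM the authors derived from them. Groups were read from the labels. The study gives 5 mice per group with 1 muscle sample from each, so that p-values measure the spread between animals.

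Of 22844 genes, 13543 with at least 1 CPM in 5 libraries were tested with edgeR 4.0.16 in R 4.3.3 (TMM scaling, 8 group means fitted to 40 libraries, robust quasi-likelihood tests, two-sided, Benjamini-Hochberg adjustment, threshold 0.05). The F statistic of each test gave the SE. Ratios of 2 genes were tested on log2 TPM with two-sided exact permutation tests. Members and pathway lists were chosen with earlier results of these data known. Pathway genes were named where called in the genotype or TSCmKO rapamycin comparisons at a mean of at least 5 CPM, up to 3 each way per list by size of change, and genes most like a member by the 3 highest correlations. Further values of genes so named, and Rhebl1, were chosen after they were seen. Some genes that these rules name are not reported here. Alternatives used DESeq2 1.42.0, limma 3.58.1 on log2(TPM + 1) and log2(TPM + 0.1), RLE and upper-quartile scaling, other filters, insert size or length score as a term, a replicate block, the compared groups alone, and libraries left out. The fitting step was tested on simulated data.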

Additional observations from a re-analysis of the deposited data

Results flagged for a closer look

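In groups of 5 libraries, 1 value lay farther from its nearest neighbour than Dixon's 95% limit allows in 9 of 80 combinations of gene and group, where chance gives about 1 in 20. Of these, 7 were at 9 months. In 9mTSCmKO+RM replicate 3, Tsc1 was high at 25.7 CPM and Rheb low at 92.8 CPM, and in replicate 1 of that group Akt1s1 was high at 131 CPM. In 9mCON, Rheb was high in replicate 2 at 177 CPM and Mlst8 low in replicate 1 at 13.1 CPM. Akt1s1 was high in 9mCON+RM replicate 1 at 163 CPM, and Rictor low in 9mTSCmKO replicate 3 at 21.8 CPM. At 3 months, Tbc1d7 was high in 3mTSCmKO replicate 4 at 24.9 CPM and Mtor high in 3mTSCmKO+RM replicate 4 at 101 CPM. The 9-month libraries named here for Rheb in 9mCON, for Akt1s1 in both groups and for Rictor are the 4 with a length score below -0.5. Leaving out the named library moved a call for Rheb in 9mCON and for Rictor. Without 9mCON replicate 2 the genotype change of Rheb at 9 months was lost (-0.15, adjusted p = 0.403) and its average change with rapamycin passed the threshold, and without 9mTSCmKO replicate 3 the age change of Rictor in TSCmKO was lost.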

How the results depend on the processing

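Of the comparisons above, the changes of Tsc1 and Deptor with genotype, of Mtor with rapamycin in TSCmKO and of Tsc2 with rapamycin in 9mTSCmKO held in each of 12 alternatives and without any 1 library. The number of genes called with genotype at 9 months (4) was 2 when those groups were fitted alone. At 3 months (2) it was 4 with a filter of 5 CPM or with upper-quartile scaling, and 5 with the length score as a term, without the 4 libraries of low score or with the groups fitted alone. For rapamycin in 3mTSCmKO (4) it was 7 with the length score as a term. For rapamycin in 9mCON (1) it was 2 with DESeq2, the length score or the replicate block, and 0 with limma at either pseudocount or the groups alone. In 3mCON (0) it was 1 with the length score or the groups alone. For age in TSCmKO (5) it was 1 with insert size as a term and 3 with limma or the groups alone, and Tbc1d7 went from 0.0029 to -0.35 (log2, adjusted p = 0.0148) with the length score. For treated TSCmKO against vehicle CON at 9 months (5) it was 3 with limma. The cause of these shifts was not tested, apart from fits on fewer libraries. Leaving out 1 library gave 0 to 2 for age in CON, 3 to 5 for age in TSCmKO, 2 to 4 for genotype at 3 months (4 without 3mTSCmKO replicate 4), 1 to 4 for rapamycin in 3mTSCmKO (1 without 3mTSCmKO replicate 1, and 2 without 3mTSCmKO replicate 2 or 5 or 3mTSCmKO+RM replicate 1), 0 to 2 in 9mCON (other than 1 without 9mCON replicate 1, 2 or 5 or 9mCON+RM replicate 1) and 3 to 6 in 9mTSCmKO (3 without 9mTSCmKO+RM replicate 2). It gave Tsc1 to Tsc2 differences of -1.41 to -1.10 for genotype at 9 months and -0.54 to -0.38 for rapamycin in 9mCON (adjusted exact permutation p down to 0.0293 without 9mCON replicate 1), and Deptor to Mtor differences of -0.37 to -0.18 for rapamycin in 9mTSCmKO (0.0293 without 9mTSCmKO replicate 3). Taken from counts, the Tsc1 to Tsc2 difference in 9mCON was -0.46 (adjusted exact permutation p = 0.0440).

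No pairing by replicate number was seen over all groups, as 28 of 140 pairs of same-numbered libraries had deviations that correlated above 0.1 (median r -0.004). These pairs include libraries of different ages, so the check cannot decide whether libraries of the same age were paired. The highest r was 0.41, between replicate 1 of 9mCON+RM and of 9mTSCmKO+RM. With the replicate block the call of Rheb with genotype at 9 months was lost and Mtor was added with rapamycin in 9mCON, and no other call of the 10 genes changed. A paired exact test of 5 pairs cannot pass the threshold, so that the block left all ratio differences unchanged in size but above it: Rptor to Rictor 0.26, Deptor to Mtor -1.30, -1.31, -1.23 and -1.50, and Tsc1 to Tsc2 -1.21, -2.12, -2.09, -2.10, -1.30, -0.88 and -0.90 (adjusted p 0.136 to 0.2, exact permutation test of pairs).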
